A study of Homo sapiens with 12 samples.

Results

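The genes described here make cholesterol and fatty acids. They are 28 lipid synthesis genes known to be regulated by sterol regulatory element binding proteins (SREBPs): 17 of sterol synthesis, 7 of fatty acid synthesis, and 4 that encode regulators or a sterol carrier. Members were taken by gene symbol from a list chosen with earlier results of these data known. Each was read from its brightest probe set with a single gene symbol. Of the 28, 26 were measured, out of 18417 genes on the array: 15 of the sterol genes, 7 of the fatty acid genes and 4 of the regulators and carriers. FDFT1 was not analysed here, and HSD17B7 was left out because its 1 probe set also carries the symbol of HSD17B7P2.

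The cells were SK-mel147, an established human melanoma line grown in DMEM with serum, and their RNA was read on 12 Affymetrix arrays (Human Gene 1.0 ST). Every culture had been infected with a lentivirus encoding a short hairpin RNA, and each of the 6 hairpins was measured on 2 arrays. The hairpins sh_37 and sh_38 target H2AZ2, and sh_83 and sh_84 target H2AZ1; these genes encode H2A.Z.2 and H2A.Z.1, closely related variants of histone H2A. The controls were a scrambled hairpin and a luciferase hairpin, 4 arrays together. No time after infection is given in the labels, titles speak of siRNA where the protocol speaks of hairpins, and no label says that the 2 arrays of a hairpin came from separate cultures, so p-values cover only the spread from array to array, technical or not. For the second array of sh_84, the title and the RNAi field disagree on the hairpin; it was grouped by its title.

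SREBPs are transcription factors held in the membrane of the endoplasmic reticulum. When membrane sterols are low, the carrier protein SCAP takes them to the Golgi, where proteases release the active fragment; INSIG proteins keep SCAP in the endoplasmic reticulum when sterols are plentiful. SREBF2 encodes the form best known for driving cholesterol synthesis, and SREBF1 the forms best known for driving fatty acid synthesis. Both genes, and INSIG1 itself, are known SREBP targets.

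The promoters of these genes are known to combine sterol elements with sites for the factors NF-Y (CCAAT) and SP1 (GC boxes). The 250 bases before the annotated start were read for the 23 measured members with an entry in RefSeq's promoter windows (GRCh38.p14), 33 windows in all. Those printed are of HMGCS1, INSIG1 and LSS, which rose with sh_37, SREBF2, the member whose window held the searched sterol element, and FADS1, which fell with sh_38. They run 5′ to 3′ on the gene's strand, and capitals mark TCACNCCAC (the sterol element) or CCAAT, or the reverse complement of either. The windows lie on the build GRCh38.p14 at chr5:43313413-43313662 (minus strand) for HMGCS1, chr7:155297628-155297877 (plus) for INSIG1, chr21:46228775-46229024 (minus) for LSS, chr22:41832855-41833104 (plus) for SREBF2 and chr11:61817004-61817253 (minus) for FADS1.
HMGCS1: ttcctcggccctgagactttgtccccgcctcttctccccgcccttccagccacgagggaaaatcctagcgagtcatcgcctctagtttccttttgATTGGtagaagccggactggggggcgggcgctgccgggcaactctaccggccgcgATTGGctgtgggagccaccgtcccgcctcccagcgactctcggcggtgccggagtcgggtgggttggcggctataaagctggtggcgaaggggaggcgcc
INSIG1: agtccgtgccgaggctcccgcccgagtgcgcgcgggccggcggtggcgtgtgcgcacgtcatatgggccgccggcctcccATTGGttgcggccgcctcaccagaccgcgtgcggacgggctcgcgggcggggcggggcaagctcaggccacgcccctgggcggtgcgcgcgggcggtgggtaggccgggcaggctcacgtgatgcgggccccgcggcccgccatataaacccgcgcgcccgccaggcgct
LSS: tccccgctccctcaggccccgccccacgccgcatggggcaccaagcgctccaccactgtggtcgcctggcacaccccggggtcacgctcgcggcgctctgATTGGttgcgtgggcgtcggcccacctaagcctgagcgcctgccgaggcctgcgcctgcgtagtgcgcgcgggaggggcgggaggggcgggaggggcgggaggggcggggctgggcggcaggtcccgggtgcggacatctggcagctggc
SREBF2: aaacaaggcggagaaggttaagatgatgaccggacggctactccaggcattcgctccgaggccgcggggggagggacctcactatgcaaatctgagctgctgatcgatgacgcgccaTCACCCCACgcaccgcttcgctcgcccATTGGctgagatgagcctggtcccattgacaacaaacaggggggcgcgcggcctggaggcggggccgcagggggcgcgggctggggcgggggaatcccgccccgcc
FADS1: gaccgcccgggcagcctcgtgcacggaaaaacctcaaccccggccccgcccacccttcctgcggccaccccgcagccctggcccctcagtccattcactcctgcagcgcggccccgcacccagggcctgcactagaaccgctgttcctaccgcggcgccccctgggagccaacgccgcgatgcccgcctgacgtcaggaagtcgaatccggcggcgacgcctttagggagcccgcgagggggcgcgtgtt

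CCAAT, searched on both strands, was present in 16 of the 23 members with a window: 11 of 13 sterol genes, 2 of 6 fatty acid genes and 3 of 4 regulators and carriers. Counted by window, that was 57.6% of the members' windows and 32.0% of all 35116 windows of the table. The HMGCS1 window above holds it at 2 places, and a window of HMGCS1 for another annotated start, which overlaps it, holds none. The GC box GGGCGG was found in 22 of 23 members and in 84.8% of their windows, against 42.6% of all windows. The sterol element TCACNCCAC was found in SREBF2 alone, from base -133 to base -125 before the start, beside a CCAAT box at -106 to -102, and in 0.883% of all windows. The E box CACGTG was found in 2 members and 9.09% of their windows, against 6.35% of all. The motifs were counted separately and do not overlap in the SREBF2 window. These matches describe letters in the windows and not binding.

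The targeted genes give the strength of each knockdown. H2AZ2, at 11.00 ± 0.05 (SD, n = 4) in controls, was 46.1% of the control level with sh_37 (limma adjusted p = 1.13e-05) and 65.4% with sh_38 (limma adjusted p = 0.00204), and it was lower with sh_37 than with sh_38 by a log2 difference of -0.50 (limma adjusted p = 0.00763; 0.0860 without sh_37 replicate 2). H2AZ1 was 19.3% of control with sh_83 and 92.0% on the arrays labelled sh_84 (limma adjusted p = 0.859), so the knockdown those labels name was not detected. Array values are log2 expression, correlated between any pair of arrays at 0.982 to 0.998, and the number of arrays limits the precision. Of the 7 melanocyte markers listed, 6 were measured: SOX10 lay between 10.23 and 10.80 and MITF between 8.14 and 8.40, while the pigment genes TYR, TYRP1, MLANA and PMEL lay between 4.53 and 5.87, with background unknown. The mean of 192 small nucleolar RNAs per array ranged from 6.68 (sh_38 replicate 2) to 7.17 (luciferase replicate 2).

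With sh_37, 6 of the 15 measured sterol genes rose, from HMGCS1 near its start to DHCR7 at its end. Of the 26 measured members, 7 passed the test upward (limma adjusted p under 0.05, adjusted over all genes) and 0 downward, while over all genes 5.72% passed upward and 7.19% downward. The 7 were HMGCS1, SQLE, LSS, TM7SF2, SC5D and DHCR7 of the sterol branch, and INSIG1. The log2 difference was above 0 in 15 of 15 sterol genes and 4 of 7 fatty acid genes, against 9856 of all 18417 genes. The median was 0.25 in the sterol branch and 0.17 in the fatty acid branch, with 0.01 over all genes. The fatty acid median was 0.11 without sh_37 replicate 1 and 0.10 against luciferase alone. Both sh_37 arrays lay above all 4 controls for 15 members (10 sterol genes, 4 fatty acid genes and INSIG1), as they did for 13.9% of all genes. They lay below all 4 controls for 3 members and for 3162 of all 18417 genes.

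HMGCS1, which makes the HMG-CoA from which mevalonate is formed, changed most. It read 10.05 and 9.94 with scrambled, 10.04 and 10.28 with luciferase, 10.98 and 10.98 with sh_37, 10.48 and 10.50 with sh_38, 9.92 and 10.10 with sh_83, and 10.02 and 10.07 on the arrays labelled sh_84. Thus all 4 H2AZ2 arrays lay above every other array. The level was 1.87-fold that of controls with sh_37 (log2 0.90, SE 0.09, limma adjusted p = 0.000121) and 1.33-fold with sh_38 (log2 0.41, SE 0.09, limma adjusted p = 0.0270). Against luciferase alone the sh_38 difference was 0.33 and did not pass (limma adjusted p = 0.111). The sh_38 call was lost in 6 of 22 settings.

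The later sterol steps that rose with sh_37 did so by less. SQLE, the epoxidase that acts on squalene, read 11.01 and 11.01 with scrambled, 10.67 and 11.11 with luciferase, 11.41 and 11.46 with sh_37, 11.14 and 11.12 with sh_38, 10.76 and 11.00 with sh_83, and 11.09 and 11.19 on the arrays labelled sh_84. Its sh_37 values were the highest 2 of the 12 (log2 difference 0.48, SE 0.12, limma adjusted p = 0.0195). Against scrambled alone the sh_37 difference of SQLE was 0.42 and did not pass (limma adjusted p = 0.07655). TM7SF2, a sterol reductase, read 7.62 and 7.69 with scrambled, 8.18 and 8.01 with luciferase, 8.45 and 8.34 with sh_37, 7.98 and 8.23 with sh_38, 7.68 and 7.53 with sh_83, and 7.47 and 7.65 on the arrays labelled sh_84. Its controls stood apart by hairpin, and the sh_37 difference of 0.52 (SE 0.10, limma adjusted p = 0.00582) was 0.74 against scrambled alone and 0.30 against luciferase alone, where it no longer passed (limma adjusted p = 0.143).

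LSS, which closes the ring system of lanosterol, rose by 0.38 (SE 0.08, limma adjusted p = 0.00745), from a control range of 9.38 to 9.43 to 9.80 and 9.76. DHCR7, the reductase of the last step to cholesterol, rose by 0.30 (SE 0.07, limma adjusted p = 0.0175), from 11.19 to 11.28 in controls to 11.54 and 11.50. Against luciferase alone its difference was 0.29 and did not pass (limma adjusted p = 0.0532). SC5D, a sterol desaturase, read 9.73 and 9.88 against a wide control range of 9.13 to 9.61 and passed only at the threshold (0.44, SE 0.13, limma adjusted p = 0.04995). Centring the arrays on their medians moved that p to 0.0512.

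The other sterol genes lay above their control mean with sh_37 without passing. They were MVD (0.27, limma adjusted p = 0.0509) and NSDHL (0.25, limma adjusted p = 0.0525), then MVK at 0.25, FDPS at 0.19, ACAT2 and CYP51A1 at 0.12, IDI1 and PMVK at 0.09 and EBP at 0.04. CYP51A1, the lanosterol demethylase, has a further probe set, not used here, whose difference was 0.18. Mevalonate decarboxylase (MVD) and the mevalonate kinases MVK and PMVK act early in the pathway, and NSDHL, EBP and CYP51A1 act after lanosterol.

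INSIG1, the sterol-sensing retention protein, read 9.76 and 10.00 with scrambled, 9.74 and 9.85 with luciferase, 10.15 and 10.32 with sh_37, 10.26 and 10.09 with sh_38, 9.69 and 9.88 with sh_83, and 9.69 and 9.42 on the arrays labelled sh_84. The 4 H2AZ2 arrays were the highest 4 of the 12. It rose with sh_37 (0.40, SE 0.11, limma adjusted p = 0.0390), and the sh_38 difference of 0.34 did not pass (limma adjusted p = 0.124). Against scrambled alone or luciferase alone the sh_37 difference did not pass either (limma adjusted p of 0.123 and 0.0578).

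The fatty acid genes did not pass the test with sh_37 in either direction. ACACA, the carboxylase that makes malonyl-CoA, read 8.96 and 8.85 with scrambled, 8.92 and 8.99 with luciferase, 9.29 and 9.22 with sh_37, 8.86 and 8.60 with sh_38, 8.82 and 8.90 with sh_83, and 8.93 and 8.67 on the arrays labelled sh_84; the sh_37 difference was 0.32 (SE 0.10, limma adjusted p = 0.0602). LPIN1, a phosphatidate phosphatase of glycerolipid synthesis, differed by 0.27 (limma adjusted p = 0.0690), FASN by 0.20 and the desaturase FADS2 by 0.17, each with both sh_37 arrays above the controls. SCD and FADS1 lay at -0.06 and -0.04. The elongase ELOVL6 lay on the other side, at -0.36 (SE 0.14, limma adjusted p = 0.123), with both sh_37 arrays (8.63 and 8.47) below all controls (8.66 to 9.06).

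The count of 7 depended on having both sh_37 arrays: it was 1 without sh_37 replicate 1 and 2 without sh_37 replicate 2. Against 1 control hairpin, it was 4 (scrambled) or 3 (luciferase).

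**Figure D1:**
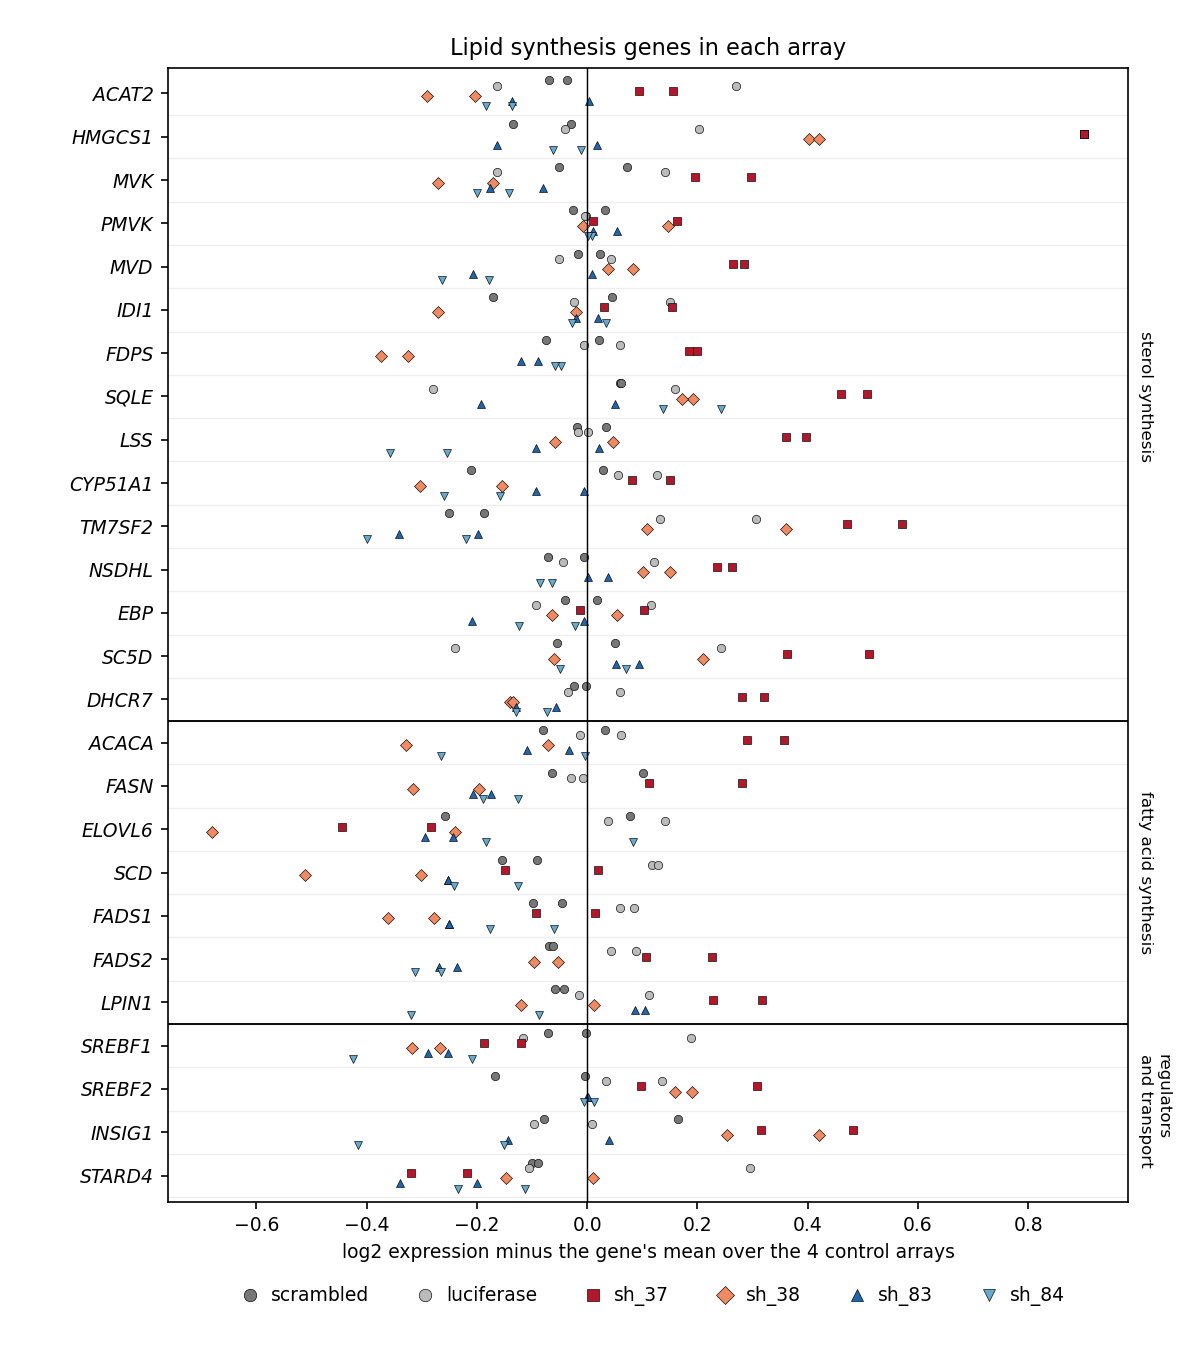
Each point is 1 array: its log2 expression minus the gene's mean over the 4 control arrays (horizontal axis), for the 26 measured genes (rows, grouped by role). The sh_37 squares lie right of 0 through most of the sterol rows, furthest at HMGCS1 (0.90), while the sh_38 diamonds lie left of 0 in rows such as FDPS, SCD and FADS1.

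With sh_38, against the same 4 control arrays, the picture was mixed in the sterol branch and lower in the fatty acid branch. HMGCS1 rose, the 1 member to do so, and 3 fell, FDPS, SCD and FADS1, where 1.28% of all genes passed upward and 3.33% downward. Of the sterol genes 7 lay above the control mean and 8 below, with a median of -0.005 that changed sign under some settings (0.06 after a further quantile normalization). All 7 fatty acid genes lay below it, with a median of -0.26, against 0.03 over all genes. Both sh_38 arrays lay below all 4 controls for 8 members, as they did for 12.8% of all genes. They lay above all 4 controls for 4 members and for 1747 of all 18417 genes.

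FDPS, which makes farnesyl diphosphate for sterols and for protein prenylation, read 9.83 and 9.93 with scrambled, 9.90 and 9.97 with luciferase, 10.10 and 10.09 with sh_37, 9.58 and 9.53 with sh_38, 9.79 and 9.82 with sh_83, and 9.86 and 9.85 on the arrays labelled sh_84. The sh_38 arrays were the lowest 2 and the sh_37 arrays the highest 2. With sh_38 it fell by 0.35 on the log2 scale to 78.5% of control (SE 0.07, limma adjusted p = 0.0190). Against scrambled alone the sh_38 difference of FDPS was -0.32 and did not pass (limma adjusted p = 0.0725).

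SCD, the desaturase that makes monounsaturated fatty acids, read 12.44 and 12.50 with scrambled, 12.71 and 12.73 with luciferase, 12.62 and 12.45 with sh_37, 12.30 and 12.08 with sh_38, 12.34 and 12.34 with sh_83, and 12.47 and 12.35 on the arrays labelled sh_84. It fell by 0.41 with sh_38 to 75.4% of control (SE 0.09, limma adjusted p = 0.0247). The control hairpins themselves differed by -0.25 (scrambled minus luciferase, not called), and against scrambled alone the sh_38 difference was -0.28 (limma adjusted p = 0.208).

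FADS1, a desaturase of polyunsaturated fatty acid synthesis, read 11.66 and 11.71 with scrambled, 11.82 and 11.84 with luciferase, 11.77 and 11.67 with sh_37, 11.48 and 11.40 with sh_38, 11.51 and 11.51 with sh_83, and 11.70 and 11.58 on the arrays labelled sh_84. It fell by 0.32 with sh_38 (SE 0.07, limma adjusted p = 0.0365), and the sh_83 arrays lay next lowest. Against scrambled alone its sh_38 difference was -0.25 and did not pass (limma adjusted p = 0.200). FASN, which builds palmitate, read 11.01 and 10.85 with scrambled, 10.90 and 10.88 with luciferase, 11.19 and 11.02 with sh_37, 10.72 and 10.60 with sh_38, 10.70 and 10.74 with sh_83, and 10.79 and 10.72 on the arrays labelled sh_84. Both sh_37 values lay above every control and the other 6 below every control; none of its 4 differences from controls passed, and that of sh_38 was -0.26 (limma adjusted p = 0.120).

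ELOVL6 had the lowest sh_38 difference of all members, -0.46, with arrays at 8.68 and 8.24, and it did not pass (SE 0.14, limma adjusted p = 0.0930). ACACA differed by -0.20, FADS2 by -0.07 and LPIN1 by -0.05. Among sterol genes, ACAT2 (-0.25), CYP51A1 (-0.23), MVK (-0.22), IDI1 (-0.14) and DHCR7 (-0.14) lay below and TM7SF2 (0.23), SQLE (0.18), NSDHL (0.13), SC5D (0.07), PMVK (0.07) and MVD (0.06) above, none called.

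The 4 calls with sh_38 depended on its arrays and on those of other hairpins, which set the pooled spread. The count was 0 without sh_38 replicate 2, 1 without luciferase replicate 2, and 2 without sh_38 replicate 1, sh_37 replicate 1 or sh_37 replicate 2. Against scrambled alone it was 1.

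The H2AZ2 hairpins were also compared directly. The log2 difference then uses no control array, but the spread behind its p-value was pooled over all 12 arrays. Of the 26 members, 25 were higher with sh_37 than with sh_38, where 42% of all genes were. The exception was STARD4, a carrier of sterols between membranes (-0.20, not called). Both sh_37 arrays lay above both sh_38 arrays for 20 members, against 21% of all genes. The median difference was 0.34 in the sterol branch and 0.33 in the fatty acid branch, with -0.03 over all genes.

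In this comparison 7 members passed the test upward, where 4.07% of all genes did: HMGCS1, MVK, FDPS, LSS, DHCR7, ACACA and FASN. FDPS differed most, by 0.54 (SE 0.08, limma adjusted p = 0.00278), followed by ACACA at 0.52 (SE 0.12, limma adjusted p = 0.0225) and HMGCS1 at 0.49 (SE 0.10, limma adjusted p = 0.0181). MVK differed by 0.47 (limma adjusted p = 0.0319), FASN by 0.45 (limma adjusted p = 0.0191), DHCR7 by 0.44 (limma adjusted p = 0.00967) and LSS by 0.38 (limma adjusted p = 0.0258). ACACA and FASN, the carboxylase and the synthase of fatty acid synthesis, passed here although neither passed against the controls with either hairpin. INSIG1 (0.06) and SREBF2 (0.03) were nearly level between the hairpins, and their differences did not pass.

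The count of 7 was 1 without sh_37 replicate 1 or without sh_38 replicate 2, 2 without sh_37 replicate 2 and 4 without sh_38 replicate 1. FDPS passed in each of the 20 other settings tried for it. SC5D, SQLE and TM7SF2, called with sh_37 against controls, were not called between the hairpins (0.36, 0.30 and 0.29).

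**Figure D2:**
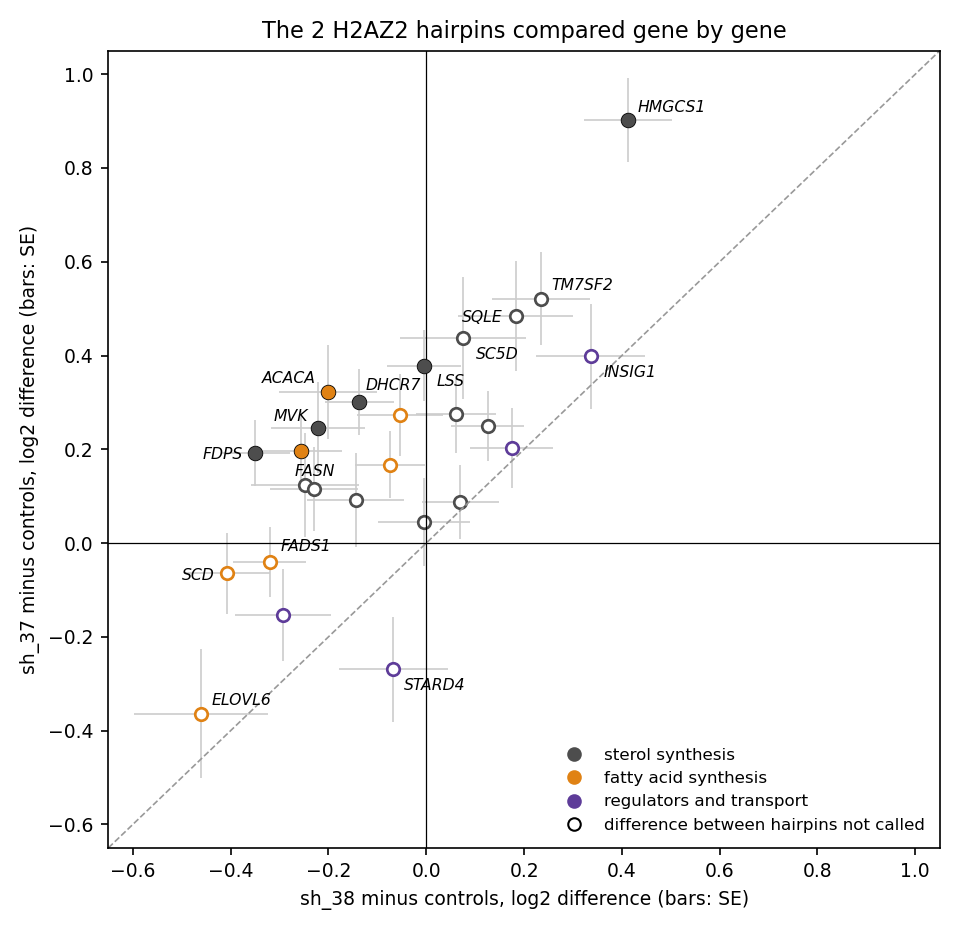
Each point is 1 gene: its log2 difference from controls with sh_38 (horizontal axis) and with sh_37 (vertical axis), with standard errors as bars, and filled where the hairpins differed by the limma test. All points but STARD4 lie above the dashed line of equal values; both axes subtract the same 4 control arrays.

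With the H2AZ1 hairpin sh_83, 0 members passed the test, and 0.641% of all genes did in either direction. At an unadjusted p under 0.05 there were 7 members and 10.2% of all genes, and a limma fit with a trended, robust variance called 2. Of the sterol genes 12 of 15 lay below the control mean, with a median of -0.07, and of the fatty acid genes 6 of 7, with a median of -0.25. The sterol median was 0.008 without sh_83 replicate 1, -0.13 without sh_83 replicate 2, -0.12 without luciferase replicate 1 and -0.03 without luciferase replicate 2. Both sh_83 arrays lay below all 4 controls for 8 members, against 10.9% of all genes. SCD, FADS1 and FADS2 each lay at -0.25, with limma adjusted p of 0.308, 0.218 and 0.191.

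On the arrays labelled sh_84, 0 members passed, against 0.353% of all genes; 8 members and 8.36% of all genes were under 0.05 before adjustment, and the trended, robust limma fit called 1. Of the sterol genes 11 of 15 lay below the control mean (median -0.07), and of the fatty acid genes 7 of 7 (median -0.16). The sterol median was -0.12 without luciferase replicate 1 or without sh_84 replicate 2 and -0.04 without luciferase replicate 2. The fatty acid median was -0.24 without sh_84 replicate 1 and -0.09 without sh_84 replicate 2. Both arrays lay below all 4 controls for 9 members, against 9.53% of all genes. LSS (-0.31) and FADS2 (-0.29) had the smallest p of the members, each with a limma adjusted p of 0.165. SQLE had the highest difference, 0.19, and SREBF1 the lowest, -0.32.

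LPIN1 had the highest difference with sh_83, 0.10. It read 10.56 and 10.57 with scrambled, 10.60 and 10.73 with luciferase, 10.93 and 10.84 with sh_37, 10.63 and 10.49 with sh_38, 10.70 and 10.72 with sh_83, and 10.53 and 10.29 on the arrays labelled sh_84. Its sh_83 values lay within the control range.

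The mean of the H2AZ2 hairpins was also set directly against sh_83. Here 3 members passed upward, where 2.85% of all genes did: HMGCS1 (0.73, SE 0.09, limma adjusted p = 0.00151), TM7SF2 (0.65, SE 0.10, limma adjusted p = 0.00460) and FADS2 (0.30, SE 0.07, limma adjusted p = 0.0373). INSIG1 (0.42, limma adjusted p = 0.0582) and SQLE (0.40, limma adjusted p = 0.0794) did not pass. Without sh_83 replicate 2 the count was 1; HMGCS1 passed in each of the 20 other settings tried for it.

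Taking H2AZ2 as 1 target of 4 arrays, with the hairpin as a random block, 1 member passed upward against controls, HMGCS1 (0.66, SE 0.13, limma adjusted p = 0.0151), where 0.863% of all genes did. The block used the same correlation of 0.157 for all genes, so this p does not measure the spread of HMGCS1 itself between hairpins. HMGCS1 averaged 10.98 with sh_37 and 10.49 with sh_38. It did not pass without scrambled replicate 1 (limma adjusted p = 0.0777), and without scrambled replicate 2 the count was 3. The sterol median was 0.08 and the fatty acid median -0.03, against 0.03 over all genes.

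**Figure D3:**
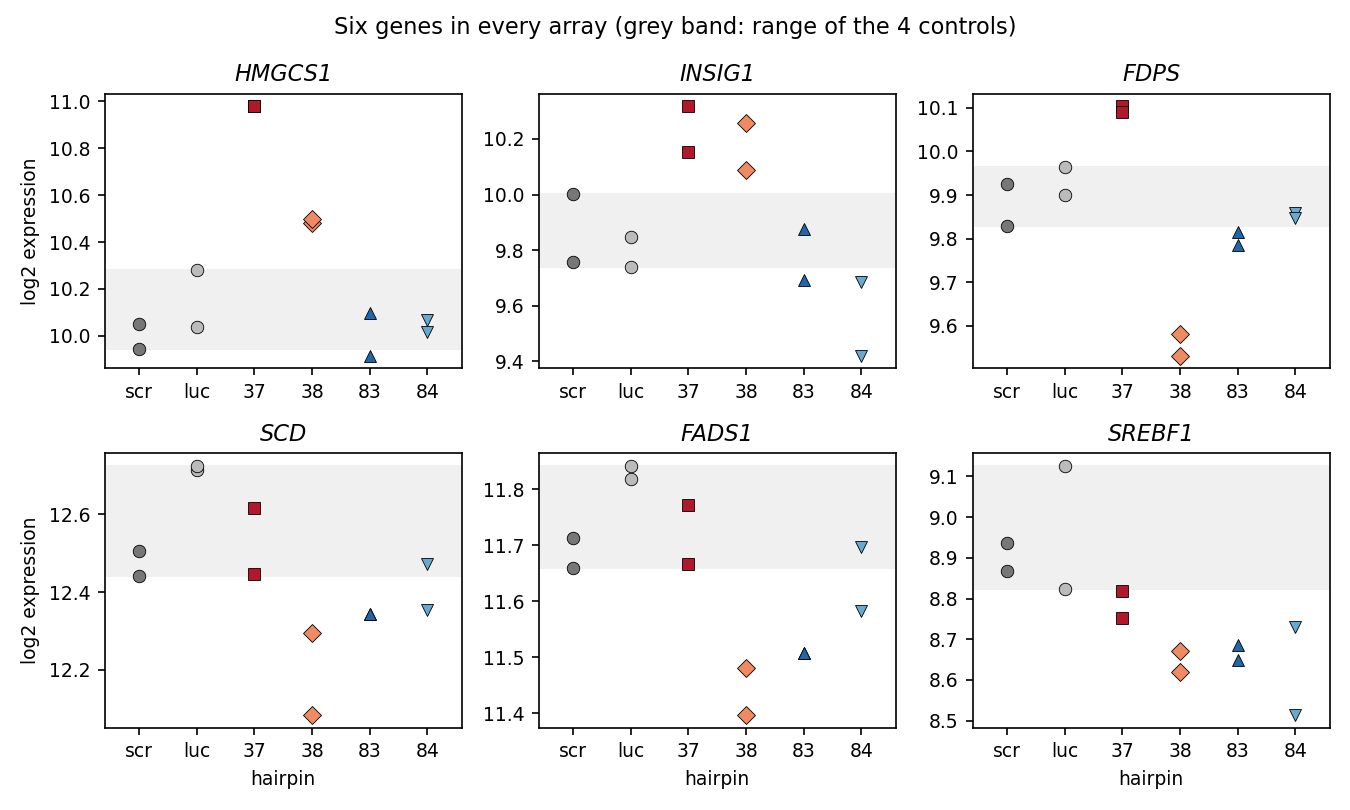
Log2 expression (vertical axis) of 6 genes in each array, by hairpin (horizontal axis: scr, scrambled; luc, luciferase; numbers, sh_37 to sh_84), with the control range in grey; the vertical axes do not start at 0. HMGCS1 and INSIG1 lie above the controls with both H2AZ2 hairpins, FDPS lies above with sh_37 (10.09 and 10.10) and below with sh_38, and SREBF1 lies below them in all 8 arrays. Separation across all 8 arrays was not counted over all genes.

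Neither SREBP gene passed the test with any hairpin. SREBF1 read 8.94 and 8.87 with scrambled, 9.13 and 8.82 with luciferase, 8.82 and 8.75 with sh_37, 8.67 and 8.62 with sh_38, 8.69 and 8.65 with sh_83, and 8.73 and 8.51 on the arrays labelled sh_84. All 8 arrays of H2AZ hairpins lay below the lowest control, the closest by 8.818 against 8.823, yet the differences of -0.15, -0.29, -0.27 and -0.32 in that order did not pass (limma adjusted p of 0.407, 0.130, 0.345 and 0.297). These 4 differences share their control arrays and are not independent of each other. How many of all genes lay below every control in all 8 arrays was not counted, so how unusual SREBF1 is in this is unknown.

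SREBF2 read 10.28 and 10.12 with scrambled, 10.42 and 10.32 with luciferase, 10.59 and 10.38 with sh_37, 10.47 and 10.44 with sh_38, 10.28 and 10.28 with sh_83, and 10.28 and 10.30 on the arrays labelled sh_84. It lay above the control mean by 0.20 and 0.17 with the H2AZ2 hairpins (limma adjusted p of 0.167 and 0.279) and at 0.00 with the others. STARD4 lay below all controls in 7 of the 8 arrays of H2AZ hairpins, at -0.27, -0.07, -0.27 and -0.17 in the same order, none called. This too was not counted over all genes.

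Between the control hairpins, 0 members and 0% of all genes passed; 2 members and 1384 genes were below 0.05 before adjustment, and each other fit run called 0 members. The members with the largest differences were TM7SF2 (-0.44, scrambled minus luciferase) and SCD (-0.25). The branch medians between controls were -0.02 for sterol and -0.13 for fatty acid genes.

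The branches were set against each other within each array as the sterol median minus the fatty acid median. This value was 0.03 and 0.04 with scrambled, -0.08 and 0.04 with luciferase, 0.06 and 0.16 with sh_37, 0.19 and 0.27 with sh_38, 0.11 and 0.26 with sh_83, and -0.03 and 0.18 on the arrays labelled sh_84. It lay above the control range in 7 of 8 arrays of H2AZ hairpins, the first array labelled sh_84 being the exception. It was highest on the second array of sh_38. With sh_37 both branches were above the controls, and with sh_38, sh_83 and the arrays labelled sh_84 the fatty acid branch was below them.

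**Figure D4:**
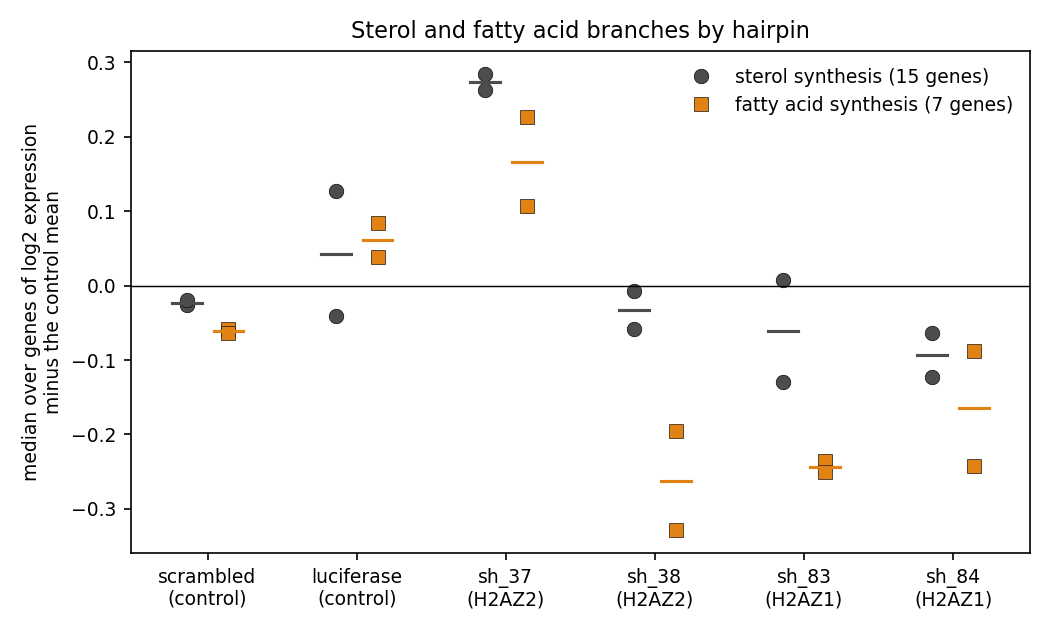
Each point is 1 array: the median over the genes of a branch of log2 expression minus the gene's control mean (vertical axis), by hairpin (horizontal axis), with short lines at the mean of the 2 arrays. The sh_37 sterol points (0.28 and 0.26) lie above all other arrays. The fatty acid points of sh_38 (-0.20 and -0.33), sh_83 (-0.24 and -0.25) and the arrays labelled sh_84 (-0.09 and -0.24) lie below every control array.

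Across hairpins, 10 members were called against controls with at least 1 hairpin, and 1, HMGCS1, with both sh_37 and sh_38 in the same direction. HMGCS1, LSS and DHCR7 were the 3 members called both with sh_37 against controls and in sh_37 against sh_38. These comparisons use the same sh_37 arrays, so a call in both is not independent agreement. Likewise, the sh_37 and sh_38 differences from controls share their control arrays. The same overlaps were not counted over all genes, so how far they exceed the background is unknown. CCAAT was present in the promoter window of 6 of the 6 members with a window that were called higher with sh_37, and in 10 of the 17 not called; among sterol genes not called it was present in 6 of 8.

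Other genes of sterol handling were counted from a list of 18, of which 15 were measured. With sh_37, 2 rose and 1 fell: ERLIN1, whose product belongs to an endoplasmic reticulum complex that takes part in the degradation of HMG-CoA reductase, fell by 0.58 (limma adjusted p = 0.00196). With sh_38, 1 rose, ERLIN2, of the same complex (0.47, limma adjusted p = 0.0129; 0.0554 without sh_38 replicate 1 and 0.101 without sh_38 replicate 2). With sh_83, 1 fell, MBTPS1, which encodes a Golgi protease that cleaves SREBPs, to 65.5% of control (-0.61, SE 0.08, limma adjusted p = 0.00616; 0.0876 without sh_83 replicate 1 and 0.142 without sh_83 replicate 2). The list's medians were -0.02, -0.01 and -0.07 in that order. Over all genes, 5.72% passed upward and 7.19% downward with sh_37, and 1.28% and 3.33% with sh_38. With sh_83, 0.641% of all genes passed in either direction.

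Of 23 further genes of fatty acid and glycerolipid synthesis, 22 were measured. With sh_37, 3 rose and 3 fell, where 5.72% of all genes passed upward and 7.19% downward. With sh_38, 0 rose and 3 fell, where 1.28% of all genes passed upward and 3.33% downward. The medians were 0.03 and -0.04 in that order. ACSS2, which makes acetyl-CoA from acetate, had the largest change with both hairpins, -0.74 with sh_37 (SE 0.11, limma adjusted p = 0.00144) and -0.59 with sh_38 (SE 0.11, limma adjusted p = 0.0132), so it fell while HMGCS1 rose. The sh_38 difference of ACSS2 did not pass against scrambled alone (-0.38, limma adjusted p = 0.180) or without sh_38 replicate 2 (limma adjusted p = 0.199). Between the hairpins, 2 of these genes passed the test as higher with sh_37, where 4.07% of all genes did. ME1, a malic enzyme that supplies NADPH, led them (0.70, SE 0.11, limma adjusted p = 0.00377).

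Markers of other cell types were read on the same arrays. All 5 fibroblast markers measured lay above the control mean with sh_37, sh_38 and sh_83, and 3 on the arrays labelled sh_84. Of all 18417 genes, 9856, 10438, 9837 and 9656 lay above it in that order. Of the 4 endothelial markers measured, 3 lay above it with each of these hairpins. Of the 5 keratinocyte markers, 4, 3, 5 and 4 did in the same order. The fibroblast markers' mean level per array was 5.97 to 6.09 in controls, 6.36 to 6.41 with sh_37 and 6.22 to 6.34 with sh_38. It was 6.06 to 6.19 with sh_83 and 5.83 to 5.91 on the arrays labelled sh_84. LUM rose with sh_37 (1.27, limma adjusted p = 1.18e-05) and with sh_38 (0.38, limma adjusted p = 0.0374) and fell on the arrays labelled sh_84 (-0.85, limma adjusted p = 0.00396), while DCN lay between 3.26 and 3.76 on every array. The control hairpins themselves differed in LUM by -0.76 (scrambled minus luciferase, limma adjusted p = 0.287). Of the 5 fibroblast markers, 4 were higher with scrambled than with luciferase, with a median of 0.26, as were 9387 of all 18417 genes. Against controls their median was 0.20 with sh_37, 0.26 with sh_38, 0.12 with sh_83 and 0.06 on the arrays labelled sh_84. Against luciferase alone the sh_38 difference of LUM was -0.002, and it did not pass in 8 of 22 settings; on the arrays labelled sh_84 it was -0.47 against scrambled alone (limma adjusted p = 0.319), and the limma adjusted p was 0.122 without sh_84 replicate 2. The leukocyte marker LYZ (-0.82, limma adjusted p = 0.00476) and the melanocyte factor SOX10 (-0.30, limma adjusted p = 0.04997) fell with sh_37. Their lists were split with sh_37. Of the 4 leukocyte markers measured, 2 lay above the control mean and 2 below, and of the 6 melanocyte markers 2 above and 4 below. LYZ was dim, between 4.81 and 5.93, and was removed when the dimmest 25% of genes were left out. LYZ did not pass without sh_37 replicate 1 (limma adjusted p = 0.0605), and SOX10 did not pass in 17 of 22 settings. The part of these markers in the lipid gene results was not tested.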

How the data were processed

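Total RNA of SK-mel147 cells was hybridised to 12 arrays. The deposited values are log2 expression per probe set, and the submitters' processing notes name RMA as the authors' tool; the RMA version is not given in the sources used here. RMA makes the arrays' distributions alike, so a shift of most genes would not be seen. The platform table pairs 19460 of the 33297 probe sets with a single symbol and 1754 with several, and 12083 are not in it; 19429 were matched to current symbols by Entrez ID. The brightest probe set per gene gave 18417 genes. The 12 arrays were fitted in limma 3.58.1 (R 4.3.3) with 6 hairpins as groups, controls being the mean of scrambled and luciferase, and p-values were adjusted over all genes by Benjamini-Hochberg at 0.05. The target comparison used the hairpin as a random block (correlation 0.157). The fits were tested on simulated data. Motifs and figures used Python 3.11.15, pandas 2.3.3 and matplotlib 3.10.9.

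The members, gene lists and tests were chosen with earlier results of these data known. Array values are given for INSIG1, HMGCS1, SQLE, SREBF1, SREBF2, SCD and FASN, and for the 3 largest rises and falls called per hairpin and between the H2AZ2 hairpins, or else the highest and lowest member. From other lists, the called gene with the largest difference per comparison is named, up to 3 per list. Of their 90 entries, 82 were measured. The alternatives tried were the mean over probe sets, a further quantile normalization, centring, leaving out the dimmest 25% of genes, a trended and robust variance, the replicate block, the snoRNA mean as a covariate, each control hairpin alone, no hairpin block, and leaving out each array.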

Additional observations from a re-analysis of the deposited data

Results flagged for a closer look

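Within the 4 arrays of a target, 1 array stood far from the others in 3 of 78 gene and target combinations by Dixon's test, where chance gives about 1 in 20. PMVK read 7.63 on sh_83 replicate 1, against 7.58 to 7.59 on the other H2AZ1 arrays. SCD read 12.47 on replicate 1 of the arrays labelled sh_84, against 12.34 to 12.35. STARD4 read 8.81 on luciferase replicate 2, against 8.41 to 8.42 on the other controls.

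The H2AZ2 hairpins differed from each other, sh_37 being higher, in HMGCS1 (0.49), MVK (0.47), FDPS (0.54), LSS (0.38), DHCR7 (0.44), ACACA (0.52) and FASN (0.45), by the limma test of the difference itself. Against sh_83, the mean of the H2AZ2 hairpins was higher in HMGCS1 (0.73), TM7SF2 (0.65) and FADS2 (0.30).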

How the results depend on the processing

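None of the 22 called differences of members changed sign under the alternatives tried; of the branch medians, the sterol medians with sh_38 and with sh_83 did. The number of members called with sh_37 was 7, and it was 13 after a further quantile normalization, 11 with the dimmest genes left out, 12 with a trended and robust variance, 13 with the snoRNA mean as a covariate, 4 against scrambled alone and 3 against luciferase alone. With sh_38 it was 4, and 2 with the snoRNA covariate and 1 against scrambled alone. The trended, robust fit called 2 with sh_83, 1 on the arrays labelled sh_84, 12 between the H2AZ2 hairpins and 5 for the H2AZ2 hairpins against sh_83; the snoRNA covariate gave 1 for the arrays labelled sh_84 and 6 for the last comparison, and quantile normalization gave 5. For H2AZ2 against control, it was 1, and 0 against scrambled or luciferase alone and 2 without the hairpin block. The fatty acid median with sh_83 was -0.18 against scrambled alone. The causes were not tested.

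Leaving out 1 array at a time gave 1 to 8 members called with sh_37, 0 to 5 with sh_38, 1 to 8 between the H2AZ2 hairpins, 1 to 4 for H2AZ2 hairpins against sh_83 and 0 to 3 for H2AZ2 against control. Where that leaves a hairpin with 1 array, the lone array is assumed to vary like the others. The sterol median ranged from -0.13 to 0.0081 with sh_83 and from 0.29 to 0.41 between the H2AZ2 hairpins. The fatty acid median ranged from -0.33 to -0.20 with sh_38, from -0.24 to -0.0881 on the arrays labelled sh_84 and from 0.24 to 0.39 between the H2AZ2 hairpins.

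Among single calls, SC5D with sh_37 and FADS1 with sh_38 were each lost in 15 of 22 settings, FADS2 against sh_83 in 10 of 20, INSIG1 with sh_37 in 9 of 22 and MVK between the hairpins in 9 of 20. HMGCS1 with sh_37 passed in 22 of 22 (limma adjusted p up to 0.00397). The 18 called differences of other named genes were put through the same settings after seeing the data, and 1 changed sign, LUM with sh_38 against luciferase alone (-0.002).

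Replicate numbers are shared between hairpins, and the main fit did not pair the arrays by them. Of 15 pairs of replicate differences, 9 correlated above 0.1, with a range of -0.469 to 0.677. The 6 pairs among scrambled, sh_37, sh_38 and sh_84 lay at 0.375 to 0.677 and the pairs with luciferase at -0.469 to 0.145. With a replicate block, 9 members were called with sh_37, 5 with sh_38, 7 between the H2AZ2 hairpins and 4 for H2AZ2 hairpins against sh_83, and SC5D was lost (limma adjusted p = 0.0510). Leaving hairpin sh_84 out of the fit, chosen after seeing the data, gave 6, 3, 6 and 2 in that order. Signal over background is unknown for these values, which limits statements on dim genes.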

Other observations

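Fatty acid oxidation was counted from a list of 15 genes, 14 of them measured, whose median difference was 0.04 with sh_37, -0.04 with sh_38, 0.08 with sh_83 and -0.09 on the arrays labelled sh_84. With sh_37, 2 rose and 1 fell, where 5.72% of all genes passed upward and 7.19% downward. The largest change was in SLC25A20, the carnitine and acylcarnitine carrier of the mitochondrial inner membrane (0.82, SE 0.11, limma adjusted p = 0.000611). With sh_38, ACAA2, a mitochondrial thiolase, fell by 0.35 (limma adjusted p = 0.0442), a call lost in 15 of 22 settings. On the arrays labelled sh_84, CPT1A, which loads long-chain fatty acids onto carnitine, fell by 0.51 (limma adjusted p = 0.0437), a call lost in 15 of 21 settings. Of all 18417 genes, 613 passed downward with sh_38 and 63 on the arrays labelled sh_84.

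Of 8 listed targets of the oxysterol-sensing liver X receptors, 7 were measured, and limma called 0 of them in each comparison with controls; at an unadjusted p under 0.05 there were 0 with sh_37, 1 with sh_38, 0 with sh_83 and 3 on the arrays labelled sh_84, where 4488, 3702, 1878 and 1540 of all 18417 genes were. Their medians were 0.07, -0.07, -0.02 and -0.04 in that order.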
